A study of Mus musculus with 6 samples.

Results

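The Ifit family encodes interferon-induced proteins with tetratricopeptide repeats, and 4 of its genes, Ifit1, Ifit2, Ifit3 and Ifit3b, were examined in regulatory T cells of mouse bone marrow. They were found by gene name, with 1 row each among the 47643 genes of every deposited table (ENSMUSG00000034459.8, ENSMUSG00000045932.12, ENSMUSG00000074896.3 and ENSMUSG00000062488.9 in that order). The cells had been sorted as CD4+ cells carrying a GFP reporter of FOXP3, the transcription factor that defines the lineage, and the reporter is common to both groups. One group was marrow of mice injected with Vk*MYC cells, which model multiple myeloma, a cancer of plasma cells, with 3 libraries numbered 3, 4 and 5. The other was marrow of control mice, with 3 libraries numbered 1, 3 and 5. The sources used here do not give strain, age, time after injection or what the control mice received. Total expected counts ran from 10240620 to 12008165 in myeloma libraries and from 11688282 to 13314631 in control libraries.

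Ifit genes are silent or low in most resting cells and are switched on by type I and type III interferon, or directly by factors downstream of viral RNA sensors. Interferon receptors signal through JAK kinases to a transcription factor complex that holds STAT2 and IRF9 and binds the interferon-stimulated response element (ISRE) in the promoters of its targets. IFIT1 binds RNA whose cap lacks 2′-O-methylation and keeps it from being translated, and IFIT2 binds AU-rich RNA. Human IFIT3 binds IFIT1 and strengthens its hold on RNA, and Ifit3b is a mouse duplicate of Ifit3.

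The promoters are shown because Ifit2 rose less than Ifit1, Ifit3 and Ifit3b. Whether promoter letters have a part in that difference was not tested. Each sequence is the 250 bases before a RefSeq transcription start in GRCm38.p6, on the plus strand of chromosome 19, with matches to the ISRE letters GAAANNGAAA (TTTCNNTTTC on the other strand) in capitals.
Ifit1, chr19:34640639-34640888: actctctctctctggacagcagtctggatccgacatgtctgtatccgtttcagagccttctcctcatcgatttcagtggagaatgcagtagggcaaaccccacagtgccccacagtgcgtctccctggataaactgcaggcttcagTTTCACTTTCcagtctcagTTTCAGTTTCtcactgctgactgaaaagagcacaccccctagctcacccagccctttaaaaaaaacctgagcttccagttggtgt
Ifit3, chr19:34583279-34583528: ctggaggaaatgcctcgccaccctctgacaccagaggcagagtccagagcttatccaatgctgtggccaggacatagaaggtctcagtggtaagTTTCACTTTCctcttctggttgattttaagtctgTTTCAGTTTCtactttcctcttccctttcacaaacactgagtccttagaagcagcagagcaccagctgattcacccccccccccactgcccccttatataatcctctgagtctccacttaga
Ifit3b, chr19:34607707-34607956: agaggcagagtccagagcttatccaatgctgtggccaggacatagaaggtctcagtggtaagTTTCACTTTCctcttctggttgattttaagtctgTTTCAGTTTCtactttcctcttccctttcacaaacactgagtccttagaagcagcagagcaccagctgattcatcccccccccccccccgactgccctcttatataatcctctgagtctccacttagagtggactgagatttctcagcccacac
Ifit2, chr19:34550444-34550693: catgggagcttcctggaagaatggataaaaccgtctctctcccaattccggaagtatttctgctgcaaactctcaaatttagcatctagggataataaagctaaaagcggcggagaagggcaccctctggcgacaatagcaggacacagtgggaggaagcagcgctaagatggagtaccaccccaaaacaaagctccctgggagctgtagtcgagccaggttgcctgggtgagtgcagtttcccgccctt
The Ifit1, Ifit3 and Ifit3b windows each held 2 ISRE matches, which did not overlap. Their first bases lay 104 and 85 bases before the start in Ifit1, 156 and 122 in Ifit3, and 188 and 154 in Ifit3b. Neither the Ifit2 window shown nor that of its second RefSeq start (chr19:34550838-34551087) held a match, which says only that these letters are not in those windows. Of 32851 such windows in the RefSeq table, 2.98% held at least 1 match and 0.18% held 2 or more. The Ifit3 and Ifit3b windows were identical at 216 of 218 aligned bases. The windows of Ifit1bl1, another Ifit gene, held 1 ISRE match each. A second set of letters, TTCNNNGAA, had 1 match in the Ifit2 window shown and 0 in the Ifit1, Ifit3 and Ifit3b windows. Of all windows, 7.02% held at least 1 match to that set. A match is a description of letters and was not tested as a binding site.

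All 4 genes were higher in the myeloma group, by 14.9-fold for Ifit3b, 13-fold for Ifit3, 7.53-fold for Ifit1 and 2.13-fold for Ifit2. Each of the 4 was called in the quasi-likelihood test of edgeR, adjusted by Benjamini-Hochberg over 13235 genes at a threshold of 0.05. Among all genes tested, 6.33% were called higher and 17.3% had myeloma values all above the control values, with 33.3% apart in either direction. The higher calls were 838 and the lower calls 621, a split that turned to 633 and 1004 when libraries were scaled by their sizes alone. Values below are depth-scaled read counts (CPM) after scaling by TMM, a between-library normalization, unless TPM is named.

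Ifit3 had 396.5, 298.6 and 438.8 CPM in myeloma replicates 3, 4 and 5. Control replicates 1, 3 and 5 had 23.6, 20.3 and 43.3 CPM. The lowest myeloma library was several times above the highest control, and control replicate 5 stood above the other controls. The log2 fold change was 3.70 (SE 0.28, adjusted p = 0.000138), and 24 of the 13235 genes had a larger one.

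Ifit3b had 116.7, 86.1 and 127.9 CPM in myeloma replicates 3, 4 and 5, against 5.15, 5.15 and 11.7 CPM in control replicates 1, 3 and 5. Its libraries followed the same order of levels as Ifit3 in the myeloma group, with replicate 4 lowest, and control replicate 5 was again the highest control. The log2 fold change was 3.89 (SE 0.30, adjusted p = 0.000155), with 18 genes above it.

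Ifit1, the sensor of incompletely capped RNA, had 229.1, 179.0 and 231.1 CPM in myeloma replicates 3, 4 and 5, against 26.0, 19.2 and 39.4 CPM in control replicates 1, 3 and 5. The groups did not overlap. The log2 fold change was 2.91 (SE 0.23, adjusted p = 0.000188), with 64 genes above it.

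Ifit2 had the highest control CPM of the members. In TPM, which divides by transcript length, the control ranges of Ifit2 and Ifit3 overlapped. Ifit2 had 153.3, 126.4 and 157.0 CPM in myeloma replicates 3, 4 and 5. Control replicates 1, 3 and 5 had 66.5, 68.4 and 70.2 CPM. The controls lay close together, and replicate 5 did not stand apart from them as it did for the other 3 genes. The log2 fold change was 1.09 (SE 0.10, adjusted p = 0.000352), and 642 genes, 4.85% of those tested, had a larger one.

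**Figure D1:**
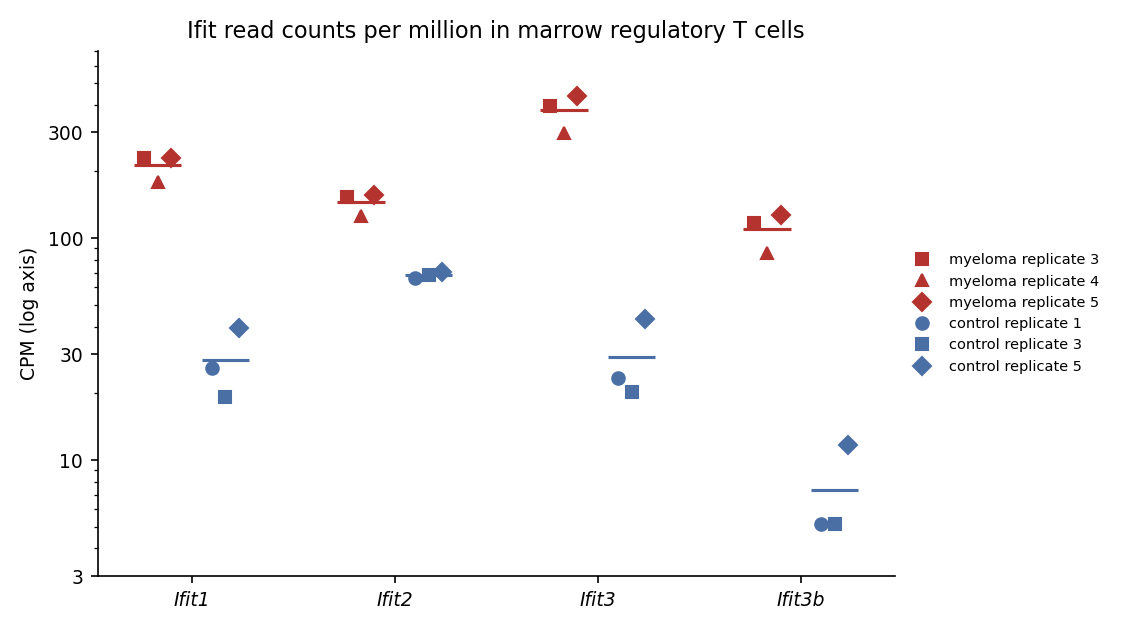
CPM of the 4 Ifit genes in each library on a log axis, with myeloma libraries in red left of control libraries in blue, and a bar at each group's mean (n = 3 each). All myeloma points lie above all control points for each gene, and control replicate 5 is the highest control for Ifit1, Ifit3 and Ifit3b, at 39.4, 43.3 and 11.7 CPM.

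Within the myeloma group the 4 genes deviated together. On the log2 CPM scale, replicate 4 lay below its group mean by 0.20 for Ifit2 to 0.34 for Ifit3b, and replicates 3 and 5 lay above it for every member. Among controls, replicate 5 lay above its group mean by 0.54 for Ifit1, 0.65 for Ifit3 and 0.77 for Ifit3b, and by 0.04 for Ifit2. Without control replicate 5 the log2 fold changes were 4.41 for Ifit3b, 4.10 for Ifit3, 3.22 for Ifit1 and 1.10 for Ifit2.

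The members' responses differed in size. The log2 ratio of Ifit3 to Ifit2 was 2.68 higher in myeloma than in control libraries, that of Ifit1 to Ifit2 was 1.89 higher and that of Ifit3b to Ifit2 was 2.92 higher. Relative to Ifit1 the differences were 0.79 for Ifit3 and 1.03 for Ifit3b, and between Ifit3b and Ifit3 the difference was 0.24. For each of the 6 pairs the myeloma ratios lay on one side of the control ratios. A two-sided exact permutation test gave p = 0.1 for every pair, also after Benjamini-Hochberg adjustment over the 6, which is the smallest p that 3 against 3 libraries allow, so none of these differences could pass the threshold.

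Levels of different genes were compared in TPM, which divides by transcript length. Ifit3 was the most abundant of the 4 in myeloma libraries, at 315.2 ± 54.4 TPM (SD, n = 3), followed by Ifit1 at 111.9 ± 15.8, Ifit3b at 78.9 ± 14.3 and Ifit2 at 52.3 ± 6.51. No neighbours in that order overlapped. In control libraries Ifit2 had 30.6 ± 2.80 TPM, Ifit3 29.2 ± 13.8, Ifit1 17.8 ± 7.29 and Ifit3b 6.30 ± 3.53 (n = 3). There the ranges of Ifit2 and Ifit3 overlapped, as did those of Ifit3 and Ifit1, while Ifit3b lay below the rest. Within each control library, however, Ifit3 was above Ifit1. Control replicates 1, 3 and 5 had 23.9, 18.8 and 44.9 TPM of Ifit3, against 16.6, 11.2 and 25.6 TPM of Ifit1. By TPM rank over all 47643 genes, Ifit3 stood between 321 and 484 in myeloma libraries and between 3718 and 6410 in control libraries.

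The summed level of the 4 genes was 620.4, 455.4 and 599.0 TPM in myeloma replicates 3, 4 and 5, against 75, 62.2 and 114.5 TPM in control replicates 1, 3 and 5. Ifit2 made up 9.42 ± 0.60% of that sum in myeloma and 38.2 ± 8.07% in control libraries (SD, n = 3 each). Ifit3 made up 56.4 ± 1.19% in myeloma and 33.8 ± 4.75% in control libraries. The share of Ifit1 was 20.1 ± 0.94% in myeloma and 20.8 ± 2.46% in control libraries, a difference smaller than the spread between control libraries.

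**Figure D2:**
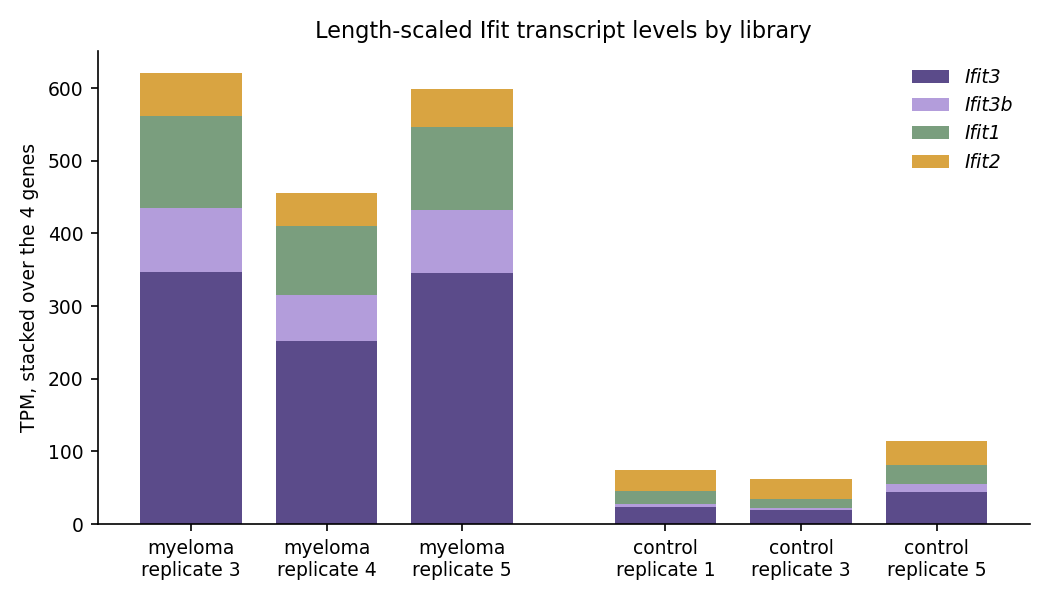
TPM of Ifit3, Ifit3b, Ifit1 and Ifit2 stacked for each library, with the 3 myeloma libraries left of the 3 control libraries. The stacks reach 455.4 to 620.4 TPM in myeloma and 62.2 to 114.5 TPM in control libraries, and the Ifit2 layer takes a larger share of each control stack.

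Reads of Ifit3 and Ifit3b cannot always be told apart. Their transcripts were 98.0% identical over 1697 aligned bases, and of the distinct 50-base runs, 51.2% in Ifit3 and 45.0% in Ifit3b also occurred in another annotated gene. For 100-base runs the shares were 31.7% and 27.4%. Ifit1 shared 7.13% of its 50-base runs, nearly all with Ifit1bl2, and Ifit2 shared 0. The expected counts of Ifit2 were whole numbers in all 6 libraries, within 0.005, and those of Ifit1, Ifit3 and Ifit3b were whole in 0.

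Summed to 1 gene before the fit, Ifit3 and Ifit3b differed by 3.74 on the log2 scale (SE 0.29, adjusted p = 0.000167). Of the pair's reads, RSEM assigned 22.7%, 22.4% and 22.6% to Ifit3b in myeloma replicates 3, 4 and 5, against 17.8%, 20.1% and 21.2% in control replicates 1, 3 and 5. The myeloma shares were all higher, by 2.84 percentage points on average, with p = 0.1 in the two-sided exact permutation test, the smallest it allows. Without control replicate 1 the difference was 1.9 percentage points, and that of the log2 ratio of Ifit3b to Ifit3 was 0.15, against 0.24 with all libraries. The control shares rest on 296 to 757 reads of the pair and the myeloma shares on 3877 to 6346.

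The 4 members lie within 99.3 kb of chromosome 19, at 34550694 to 34650009 in GRCm38, with 2 other Ifit genes among them. In order of position, Ifit2 (34550694 to 34576419), Ifit3 (34583531 to 34588731), Ifit3b (34607970 to 34613401) and Ifit1 (34640871 to 34650009) are all on the plus strand. Ifit1bl1 (34592891 to 34601956) and Ifit1bl2 (34617049 to 34640743), both named for their likeness to Ifit1, are on the minus strand. No exon of these 6 genes overlapped an exon of another annotated gene, so the kit's lack of strand information does not mix their reads with an antisense partner in this annotation.

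Ifit1bl1 had 281.1, 239.3 and 246.6 CPM in myeloma replicates 3, 4 and 5, against 80.3, 59.7 and 84.5 CPM in control replicates 1, 3 and 5. Its 3.41-fold increase (adjusted p = 0.000152, log2 fold change 1.77, SE 0.14) lay between those of Ifit2 and Ifit1, and by mean it was the most abundant of the 6 genes in control libraries, at 57.5 ± 13.1 TPM (n = 3). Ifit1bl2, which has a RefSeq start head to head with that of Ifit1, had 2.82 ± 0.43 CPM in myeloma and 1.09 ± 0.49 CPM in control libraries (n = 3 each). It was not called (log2 fold change 1.36, SE 0.49, adjusted p = 0.11). The window at that start held the same 2 ISRE matches as that of Ifit1, since the windows overlap.

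Outside the family, 5 genes with any part within 500 kb of the cluster were tested, and 0 were called in either direction by edgeR, DESeq2 or limma-voom, where edgeR called 11.0% of all genes tested. At an unadjusted p below 0.05 the number was also 0. Lipa, the lysosomal acid lipase next to Ifit2, had 63.8 ± 13.4 CPM in myeloma and 66.3 ± 1.64 in control libraries (log2 fold change -0.05, SE 0.14, adjusted p = 0.842). On the log2 scale the differences were 0.04 (SE 0.14) for the death receptor gene Fas, -0.16 (SE 0.10) for the deubiquitinase gene Stambpl1, -0.53 (SE 0.47) for the pantothenate kinase gene Pank1 and -0.01 (SE 0.15) for the kinesin gene Kif20b. Their myeloma and control values overlapped.

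**Figure D3:**
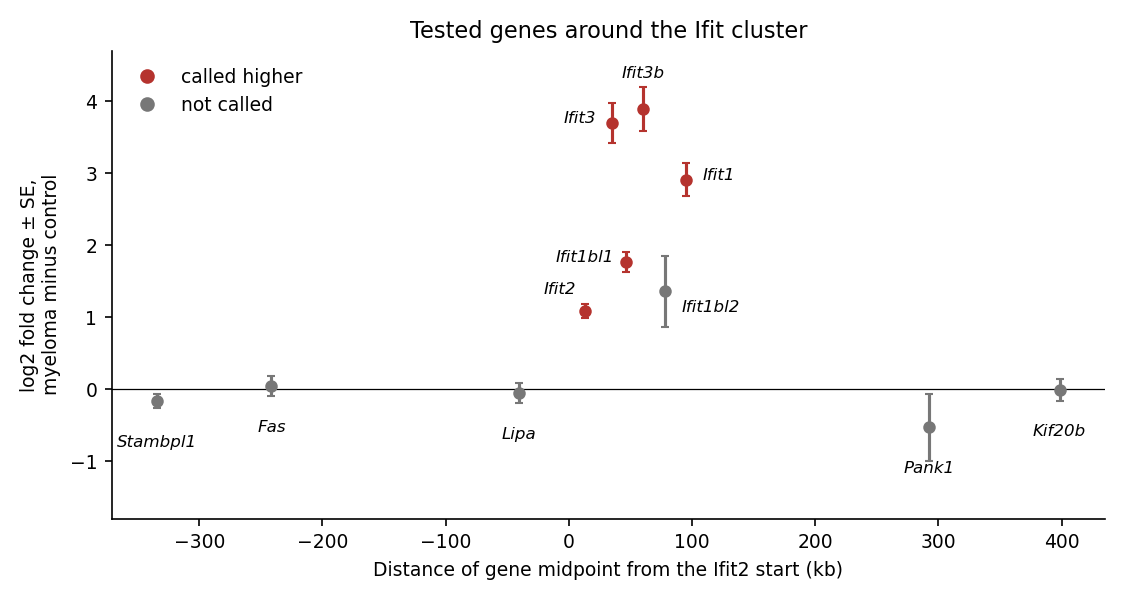
Log2 fold change with its SE for the 11 tested genes within 500 kb of the Ifit cluster, against the distance of the gene's midpoint from the Ifit2 start in kb. The 5 Ifit genes called higher (red) stand between 1.09 and 3.89, the uncalled Ifit1bl2 lies at 1.36, and the 5 flanking genes (grey) lie between -0.53 and 0.04.

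The genes whose pattern was most like each member were taken from 9542 genes by the root mean square difference of centred log2 CPM over the 6 libraries. Centring on the mean of all 6 libraries keeps the group difference. The measure therefore mostly picks genes with a fold change near the member's own. For Ifit1 they were Oasl1 (0.20), Oas3 (0.24) and Irf7 (0.25), and Mov10 and Tlr7 (0.09 each) were near Ifit2. For Ifit3 they were Isg15 (0.24), Oas2 (0.25) and Oasl2 (0.28), and Ifit3b had the same 3 at 0.32, 0.33 and 0.38. Between members the difference was 0.14 for Ifit3 and Ifit3b, 0.41 for Ifit3 and Ifit1, and 0.98 for Ifit2 and its nearest member, Ifit1. Isg15, a ubiquitin-like interferon-induced protein, averaged 140.6 ± 21.2 CPM in myeloma and 12.0 ± 2.52 CPM in control libraries (n = 3 each).

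Transcripts of interferons themselves were scarce in the sorted cells. Of 21 ligand genes, 13, among them Ifnb1, had no count in any library, which allows up to 0.225 to 0.293 CPM per library for counting error alone. Only Ifng, the gene of interferon gamma, was tested, at 7.26 ± 1.68 CPM in myeloma and 4.17 ± 2.27 in control libraries (log2 fold change 0.80, SE 0.41, adjusted p = 0.237). Of 6 receptor genes 5 were tested, and 0 were called by edgeR, DESeq2 or limma-voom, with 1 (Ifngr2) at an unadjusted p below 0.05 in edgeR. Ifnar1, a subunit of the type I receptor, had 256.9 ± 9.04 CPM in myeloma and 290.9 ± 35.7 in control libraries (adjusted p = 0.284), a log2 fold change of -0.18. Its partner Ifnar2 had 90.2 ± 10.5 CPM in myeloma and 88.7 ± 12.2 in control libraries (adjusted p = 0.924). Ifngr2, a subunit of the interferon gamma receptor, had 37.3 ± 5.0 CPM in myeloma and 47.1 ± 4.54 in control libraries (log2 fold change -0.34, SE 0.13, adjusted p = 0.117). With an offset for effective length it was called lower (-0.74, adjusted p = 0.0236). The median was -0.12 over the receptors and 0.02 over all genes tested.

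Of 9 kinases and transcription factors 5 were called higher and 1 lower, against 6.33% and 4.69% of all genes tested, with a median log2 fold change of 0.43. Stat2 and Irf9, which act in the ISRE-binding complex, rose by 1.45 (SE 0.14, adjusted p = 0.000575) and by 0.82 (SE 0.11, adjusted p = 0.00273) on the log2 scale. Irf7, a factor that amplifies the response, rose by 2.57 (SE 0.22), and Irf3, which needs no induction, had 135.2 ± 11.1 CPM in myeloma and 134.8 ± 1.59 in control libraries. Jak2 (0.43) and Irf1 (0.45) were called higher and Jak1 (-0.40) lower, but these calls did not hold throughout. Dropping myeloma replicate 3 gave Jak2 an adjusted p of 0.0632, dropping control replicate 3 gave 0.0594 and dropping control replicate 5 gave 0.0568. For Jak1 the adjusted p was above the threshold whichever of the 6 libraries was dropped (0.0593 without myeloma replicate 5 to 0.127 without control replicate 5). For Irf1 this was so for each library except control replicate 3 (0.0633 without myeloma replicate 5 to 0.113 without myeloma replicate 3).

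Inhibitors of the pathway had 3 of 8 tested genes higher, against 6.33% of all genes, 0 lower, and a median of 0.03. Usp18, which blocks signalling at the type I receptor and removes ISG15 from proteins, rose by 2.33 on the log2 scale (SE 0.19, adjusted p = 0.00022). Socs1 (1.58, SE 0.32) and Socs3 (0.38, SE 0.08) were also called. The adjusted p of Socs1 was 0.0604 with myeloma replicate 3 dropped, 0.0601 with myeloma replicate 4 dropped and 0.0635 with control replicate 3 dropped. That of Socs3 was 0.079 with myeloma replicate 3 dropped, 0.0567 with control replicate 1 dropped and 0.0911 with control replicate 3 dropped.

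Sensors of RNA and their adaptors had 5 of 10 genes higher, against 6.33% of all genes, 0 lower, and a median of 1.05. Dhx58 (log2 fold change 2.08, SE 0.14), Ifih1 (1.74, SE 0.16) and Ddx58 (1.02, SE 0.15) encode the 3 RIG-I-like receptors, and all rose. The kinase gene Eif2ak2 (1.08, SE 0.14) and the endosomal receptor gene Tlr7 (1.18, SE 0.15) rose too. Tlr3, another endosomal receptor gene, had 1.81 ± 0.86 CPM in myeloma and 0.22 ± 0.31 in control libraries (n = 3 each), a log2 fold change of 2.93 (SE 0.95). It was not called (adjusted p = 0.0808), except in the fit with no low-count filter (adjusted p = 0.024). There its SE was 0.94, so the estimate itself hardly changed. Control replicates 1, 3 and 5 held 0, 1 and 8 reads of Tlr3. Mavs, the adaptor of the RIG-I-like receptors, had 28.8 ± 1.51 CPM in myeloma and 28.3 ± 0.79 in control libraries (log2 fold change 0.02, SE 0.11).

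IFIT proteins act on capped RNA and on initiation factor eIF3, so both sets were listed. Of 4 genes for cap methylation 1 was higher, against 6.33% of all genes: Cmtr1, the enzyme of the 2′-O-methylation that keeps host RNA from IFIT1, at 0.43 (SE 0.10, adjusted p = 0.0287). It lost its call without myeloma replicate 3 (0.0729), 4 (0.0842) or 5 (0.0605) and without control replicate 1 (0.0637) or 3 (0.0914). Of 14 eIF3 subunit genes edgeR called 1, a share near the 6.33% of all genes, and DESeq2 called 2, Eif3f (adjusted p = 0.0236) being the other. The edgeR call was Eif3i at 0.30 (SE 0.08, adjusted p = 0.0397), and its adjusted p passed 0.05 whichever of the 6 libraries was dropped (0.0705 without myeloma replicate 5 to 0.118 without myeloma replicate 4). The medians were 0.16 for cap methylation and 0.18 for eIF3.

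**Figure D4:**
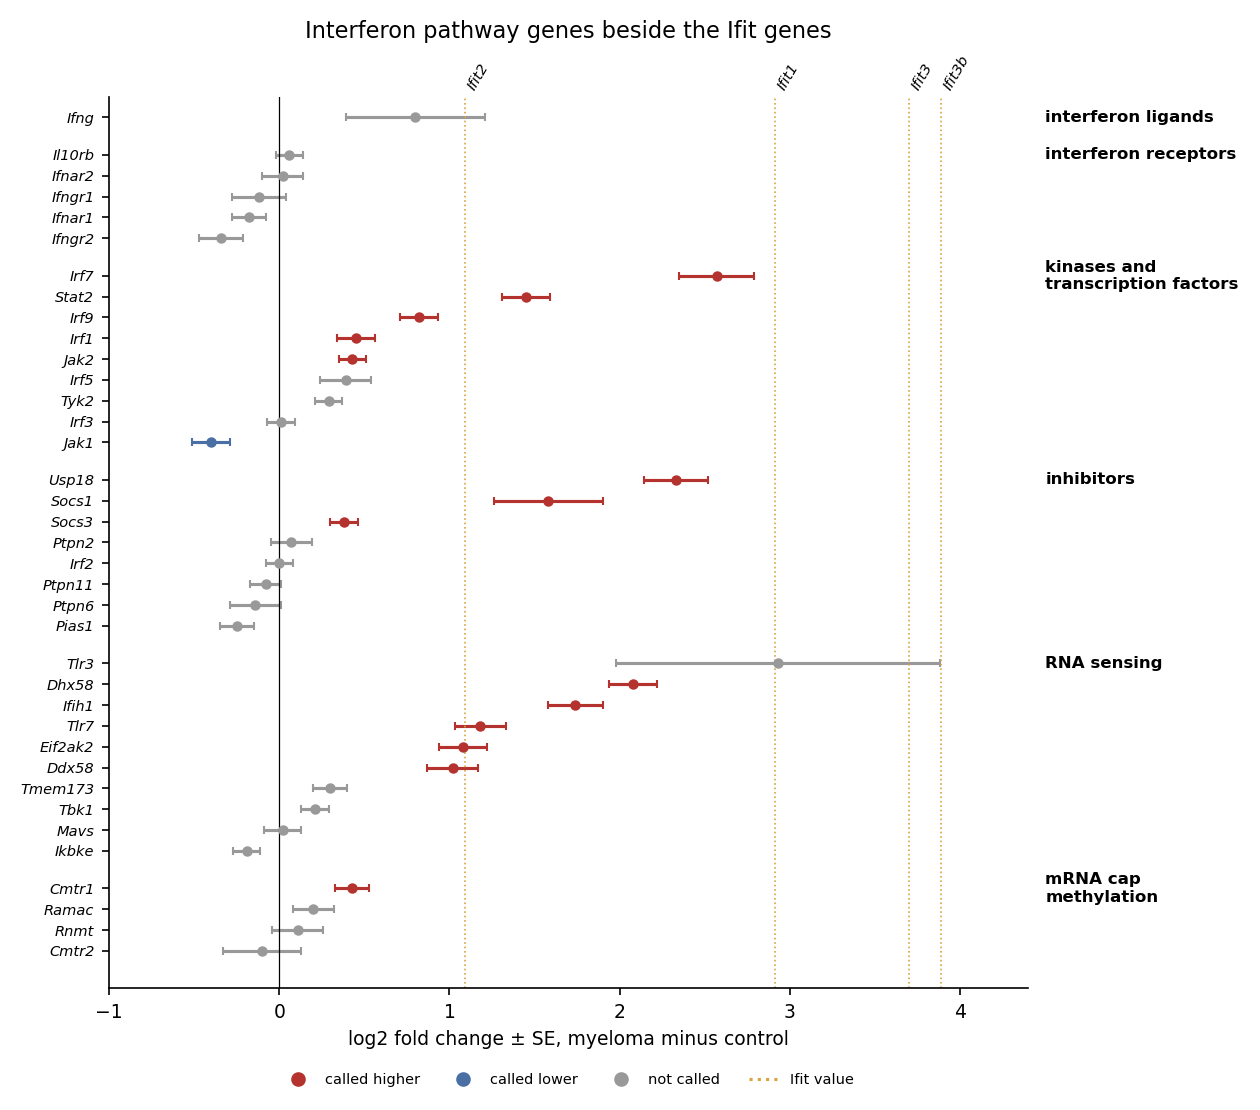
Log2 fold change with its SE for the tested interferon ligand, receptor, signalling, inhibitor, RNA sensing and cap methylation genes, with dotted lines at the 4 Ifit values. No gene called higher (red) reaches the Ifit1 value of 2.91, the nearest being Irf7 at 2.57, while the uncalled Tlr3 lies at 2.93, and no receptor gene was called in this fit.

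Over the 13235 genes tested, edgeR called 838 higher and 621 lower (6.33% and 4.69%). DESeq2 called 1090 higher and 964 lower, and limma-voom called 791 higher and 586 lower. No share over all genes is given for an unadjusted p below 0.05, so those marker counts lack a background. Among markers of regulatory T cells, 2 of 8 were called higher (Cd3g and Tnfrsf18). The 8 markers summed to 5170 to 5410 CPM in myeloma and 4510 to 5980 CPM in control libraries. Plasma cell markers totalled 291, 397 and 555 CPM in myeloma replicates 3, 4 and 5, against 154 to 225 CPM in controls. Of the 7 tested edgeR called 2 higher (Jchain and Sdc1), DESeq2 called 3 and limma-voom 1, with 6 at an unadjusted p below 0.05 in edgeR. Tnfrsf17, which was not tested, was at 0.423, 0.695 and 0.714 CPM in myeloma replicates 3, 4 and 5 and at 0 in controls. Jchain was at 37.7, 118 and 199 CPM in myeloma replicates 3, 4 and 5. In control replicates 1, 3 and 5 it was at 3.67, 0.601 and 3.7 CPM. Sdc1 was at 1.1, 9.23 and 25.2 CPM in the same myeloma replicates, against 0.601 to 1.45 CPM in controls. Xbp1, Prdm1 and Irf4, also in the sum, were at 46.1 to 124 CPM in myeloma and 38.1 to 90.8 CPM in controls. Macrophage and monocyte markers, of cells that also express Ifit genes, totalled 57.9, 145 and 473 CPM in myeloma replicates 3, 4 and 5, against 40.7 to 105 CPM in controls. Of the 9 tested edgeR called 2 higher (Fcgr1 and C1qa), DESeq2 called 4 and limma-voom 0, with 8 at an unadjusted p below 0.05 in edgeR. Myeloma replicate 3 had 396.5 CPM of Ifit3, a macrophage sum within the control range, and Fcgr1 at 1.27 CPM and C1qa at 9.73 CPM, against 0.258 to 0.726 CPM and 3.85 to 9.52 CPM in controls. Replicate 5 was the library with the most of both marker sets. Without it the log2 fold changes were 3.57 for Ifit3, 3.77 for Ifit3b, 2.84 for Ifit1 and 1.03 for Ifit2.

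Neutrophil markers ranged from 139 to 474 CPM in myeloma and 64.6 to 189 CPM in controls, with 0 of 9 called by edgeR, 2 by DESeq2, 1 by limma-voom and 5 at an unadjusted p below 0.05 in edgeR. NK cell markers ranged from 4.23 to 8.22 CPM in myeloma and 2.41 to 4.07 CPM in controls (1 of 2 tested higher, with Klra8 and Klra4 at 0 in myeloma). Plasmacytoid dendritic cell markers ranged from 256 to 363 CPM in myeloma and 95.9 to 114 CPM in controls, with 1 of 5 tested called by edgeR (Bst2, itself interferon-inducible) and 2 by DESeq2. Siglech, a defining marker of those cells, was at 0.846, 0 and 4.91 CPM in myeloma replicates 3, 4 and 5, against 2.42, 2.32 and 5.52 CPM in control replicates 1, 3 and 5. Irf8, of the same list and also interferon-inducible, was at 57.1, 37.3 and 89.8 CPM in myeloma replicates 3, 4 and 5. In control replicates 1, 3 and 5 it was at 36.3, 30.1 and 37.8 CPM. Ccr9 was at 10.7 to 15.9 CPM in myeloma and 8.76 to 14.4 CPM in controls. Tcf4 was at 3.89 to 10.7 CPM in myeloma and 7.88 to 12.0 CPM in controls. CD8 T cell markers ranged from 13.5 to 22.4 CPM in myeloma and 11.0 to 13.8 CPM in controls, with 0 of 2 called by edgeR, DESeq2 or limma-voom and 1 at an unadjusted p below 0.05 in edgeR. B cell markers were at 27.3 to 68.2 CPM in myeloma and 44.1 to 284 CPM in controls (4 of 8 lower, against 4.69% of all genes). Red cell markers were at 3850 to 4770 CPM in myeloma and 6710 to 14700 CPM in controls (5 of 7 lower). The part of these other cells in the Ifit values was not tested, and in bulk RNA more cells expressing a gene and more RNA per cell cannot be told apart.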

How the data were processed

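RNA-seq libraries were made from total RNA of the sorted cells with the RNeasy Micro and NEBNext Ultra RNA kits, per the labels' protocols. STAR, RSEM, Picard, DESeq2 and mm10 are named in the submitters' processing notes. Their versions are not given in the sources. The deposited expected counts are, per the file headers, estimated by RSEM for each gene and carry no normalization. The deposited TPM and FPKM were scaled by RSEM for effective length and library total, per the file headers. TPM served for levels only and FPKM was not used. Transcript and effective lengths in bases are among the other deposited columns.

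Expected counts were rounded, filtered with filterByExpr (minimum count 10, total 15), TMM-scaled and compared in edgeR 4.0.16 under R 4.3.3 (glmQLFit, then glmQLFTest), as myeloma minus control. Each SE was derived as the log2 fold change divided by the root of F. The test was tested on simulated data. Nothing ties replicate numbers to animals beyond the series design's 3 mice per group, so the p-values cover only library-to-library spread, which may be technical. Limits for counts of 0 (3 counts per library) cover counting error only. Of the gene IDs, 47224 matched reference names. Positions are from GENCODE M21 (GRCm38, the assembly mm10 denotes), and promoters from RefSeq. All 4 members matched a promoter. Alternatives included DESeq2 1.42.0 and limma-voom (limma 3.58.1).

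Members, pathway and marker lists were chosen with earlier results of these data known. The naming rule takes all members, other Ifit genes, tested genes within 500 kb and, per member, the 3 genes nearest in centred log2 CPM (prior count 2) with a mean of at least 5 CPM, without predicted models and pseudogenes. Pathway genes were counted in full, except that 1 gene is not reported here.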

Additional observations from a re-analysis of the deposited data

How the results depend on the processing

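All 4 members stayed called and higher under each alternative fitted. Log2 fold changes over scaling, filters, tests, dispersion, effective length, gene removal and summing of the pair ran from 2.83 to 2.95 for Ifit1, 1.01 to 1.09 for Ifit2, 3.62 to 3.74 for Ifit3 and 3.82 to 3.97 for Ifit3b. Leaving out 1 library gave 2.70 to 3.22, 1.03 to 1.18, 3.49 to 4.10 and 3.68 to 4.41 for Ifit1, Ifit2, Ifit3 and Ifit3b. The highest adjusted p over all alternatives was 0.00586, for Ifit3 with robust dispersion. The replicate number was tried as a block. Same-numbered libraries deviated from their group means with correlations of 0.03 (number 3) and 0.10 (number 5) over genes. The labels do not say what the numbers mean, and these correlations cannot decide whether same-numbered libraries share anything else. With the block, Ifit1 was at 3.04 (adjusted p = 0.00362), Ifit2 at 1.16 (0.00562), Ifit3 at 3.80 and Ifit3b at 3.91 (0.00178 each), and 362 genes were called higher and 142 lower, against 838 and 621 without it. Only numbers 3 and 5 occur in both groups. Over all genes tested, the counts called were 1337 higher and 1102 lower with no low-count filter, 633 higher and 1004 lower with library sizes alone, 405 lower with the effective-length offset and 964 lower with DESeq2. Leaving out 1 library gave 331 to 836 higher and 123 to 546 lower, in fits with fewer samples. With no low-count filter the SE was 0.11 for both Ifit1 and Ifit2, against 0.23 and 0.10 in the main fit. The calls of that fit therefore follow the spread of single genes less closely. Apart from the construction of these settings, the cause was not tested. Of 1169 values for the 65 other genes, 46 lost the call, 7 gained it and 1116 stayed on their side of the threshold. The sign changed in 52 values of 16 genes, each at most 0.12 in size and called in neither fit. Myeloma libraries held at least 868 reads of each member, and control libraries as few as 59.6, for Ifit3b.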

Other observations

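The Ifit2 annotation has a transcript of 3818 bases and one of 700 bases, and the mean length that RSEM reports gives their mix. The long form made up 97.8%, 100% and 99.5% of Ifit2 transcripts in myeloma replicates 3, 4 and 5, against 95.6%, 95.4% and 91.1% in control replicates 1, 3 and 5. The groups did not overlap. This value was looked at after the others, rests on RSEM's model and has no test. With an offset for effective length, which carries this mix, the log2 fold change of Ifit2 was 1.01 (SE 0.11), against 1.09 (SE 0.10) without it.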
